A study of Homo sapiens with 12 samples.

Results

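The 9 genes described here encode the 5 subunits of the transcription factor NF-kB (NFKB1, NFKB2, REL, RELA and RELB), 2 of its cytoplasmic inhibitors (NFKBIA and NFKBIE) and 2 of its target genes (ICAM1 and CD83). They were chosen by name, as the rows of the count tables whose Ensembl identifiers map to these symbols. Earlier results of these data were known when they were chosen. All 9 were found, among 63677 genes listed, and all 9 passed the filter on low counts that left 12864 genes for testing.

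The study measured polyadenylated RNA in SET-2 cells, an established human line labelled as acute myeloid leukemia, by sequencing from transcript 3′ ends. LSD1 is the product of KDM1A and removes methyl groups from histone tails, and GSK-LSD1 blocks it irreversibly. There were 12 libraries in 4 groups of 3: insR cells given 250 nM GSK-LSD1, insR cells given DMSO, WT cells given GSK-LSD1 at the same dose, and WT cells given DMSO. The comparisons ask how far the drug changed transcripts in each kind of cell and whether the resistant cells lacked that change. WT cells have wild-type LSD1. The insR cells are SET-2 cells whose LSD1 carries the insertion Leu659_Asn660insArg, and the labels call them drug-resistant. DMSO was at 0.1% by volume and every treatment lasted 48 h. The labels do not say how many clones the insR cells came from, nor whether the 3 libraries of a group were separate cultures, so the p-values reflect the variation among these libraries, which could be purely technical.

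NF-kB proteins are dimers that wait in the cytoplasm, held there by inhibitors of the IkB family. Kinases of the IKK complex mark the inhibitor for destruction when a receptor for TNF, an interleukin or a microbial product is engaged, and the freed dimer enters the nucleus and binds kB motifs in DNA. NFKBIA is itself a target in this pathway, which makes a negative feedback loop, and in blood cells REL, RELA and their partners control genes of inflammation, adhesion and survival.

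Because members of the family bind kB motifs and several are themselves targets, promoter sequence from RefSeq on GRCh38.p14 was read for the 250 bases before each annotated start, and 7 of the 9 genes had an entry. RELB and NFKBIE had none, so their promoters were not read. A kB consensus of 10 letters lay on either strand in 5 of the 7 genes and a 9-letter core, GGAANTTCC, in 5, with 6 genes holding either of them. Among all 35116 promoters of the same length, 5.21% held the consensus and 0.826% the core, and of the 27305 genes they belong to, 6.28% held the consensus and 0.996% the core in at least 1 promoter. The motifs overlap, so 1 stretch can match both, and the core was chosen after the sequences had been read. The windows below, each of 40 bases and shown 5′ to 3′ on the strand of the gene, hold the matches of REL, NFKBIA and NFKB1, whose levels moved, and of ICAM1 and CD83, the 2 targets. Capitals mark the match.
REL, chr2:60881512-60881551, + strand, match 47 to 37 bases before the start: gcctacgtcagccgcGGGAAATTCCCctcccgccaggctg
NFKBIA, chr14:35404806-35404845, - strand, match 81 to 72 bases before the start: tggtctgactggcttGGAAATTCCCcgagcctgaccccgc
NFKB1, chr4:102501295-102501334, + strand, match 49 to 40 bases before the start: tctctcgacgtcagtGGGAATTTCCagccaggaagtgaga
ICAM1, chr19:10270919-10270958, + strand, match 186 to 178 bases before the start: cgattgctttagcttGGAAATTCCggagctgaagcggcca
CD83, chr6:14117707-14117746, + strand, match 50 to 42 bases before the start: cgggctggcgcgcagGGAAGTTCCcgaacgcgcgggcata
The REL, NFKBIA and NFKB1 windows match both motifs, and the ICAM1 and CD83 windows match the core. A further CD83 window of the same entry matched the consensus 76 to 65 bases before the start. NFKB1 and CD83 had 2 entries each, and the other entry of each held 0 matches. NFKB2, which was called in no comparison below, held the consensus and not the core, with 0, 3 and 2 consensus matches in its 3 entries. Its windows are not shown. Neither entry of RELA held a match, which says only that these letters are not in the bases read. A match is a description of the sequence and not a binding site or a cause of the levels below.

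Reads in genes numbered 4837096 to 10141155 per library, and levels are given as CPM, read counts divided by each library's TMM-scaled total of reads in genes. A count of 0 allows 3 counts, which was worth 0.305 to 0.622 CPM depending on the library. These floors, and the counting interval given below for MALT1, cover counting error only. The other intervals come from the edgeR fit and also carry the variation among libraries. NFKB2 had 14 to 50 reads per library and NFKBIA 344 to 2174. The hematopoietic markers PTPRC, CD33, CD34, KIT and SPI1 were present in every group, while MPO, a granule enzyme of the myeloid lineage, averaged 0.164 to 0.734 CPM. Genes were called at an edgeR adjusted p below 0.05. Under GSK-LSD1, 0.505% of all genes tested were called in insR cells and 45.2% in WT cells.

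**Figure D1:**
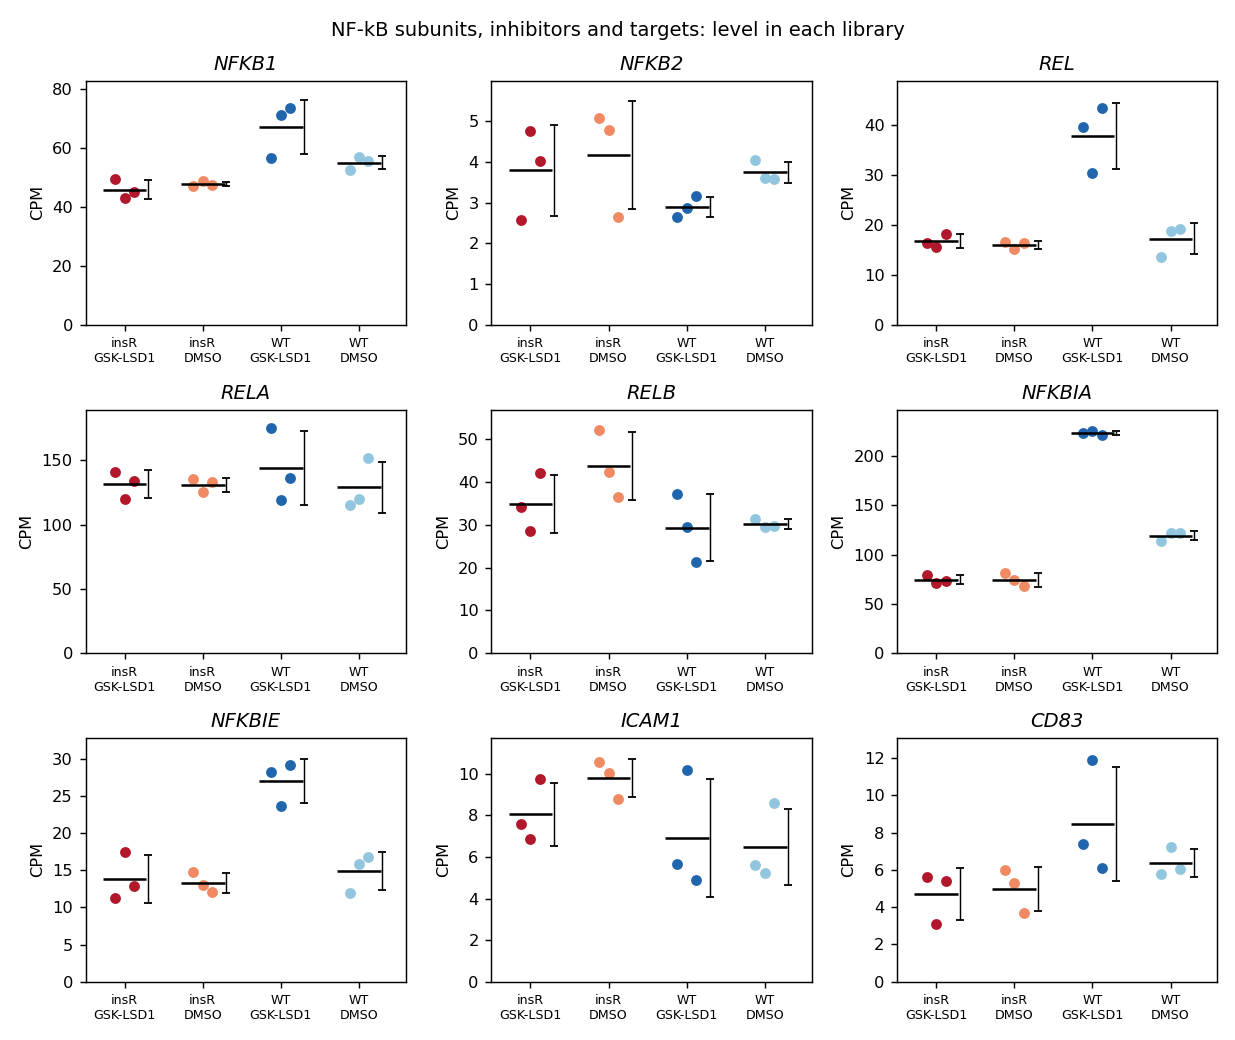
Level of each of the 9 genes in every library, in CPM from 0 upward, with 1 point per library, a line at the group mean and a bar of ±1 SD (n = 3). REL, NFKBIA and NFKBIE stand apart in WT cells under GSK-LSD1, where the 3 NFKBIA libraries lie at 221 to 225 CPM, while the insR groups lie together.

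In WT cells REL, NFKBIA, NFKBIE and NFKB1 rose under GSK-LSD1, and none of the 9 genes was called lower. The 4 called genes compare with 45.2% of all genes called in this comparison, 22.7% of them higher, so the count alone does not set the 9 genes apart. The median log2 fold change was 0.29 over the 9 genes and 0.01 over all genes tested. The former is the value of NFKB1, which 30.65% of all genes tested exceeded, and these medians carry no test. REL, which encodes the subunit c-Rel of lymphoid and myeloid cells, was at 39.7, 30.5 and 43.5 CPM in WT libraries with GSK-LSD1, against 13.7, 18.9 and 19.3 CPM in WT DMSO libraries. Every treated library lay above every untreated one, as for 26.5% of all genes tested. The rise was 2.2-fold, a log2 fold change of 1.14 (SE 0.151, edgeR adjusted p = 1.32e-06). In bulk RNA, a change in the share of cells that express a gene and a change in RNA per cell cannot be told apart.

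NFKBIA encodes IkB-alpha, the inhibitor that NF-kB itself induces. Its level was 223, 225 and 221 CPM in WT libraries with GSK-LSD1, against 114, 122 and 122 CPM in WT DMSO libraries. The groups did not overlap, and the spread among treated libraries, a coefficient of variation of 0.862%, was the narrowest of the 9 genes in any group. NFKBIA rose 1.88-fold, a log2 fold change of 0.91 (SE 0.0814, adjusted p = 2.68e-09). NFKBIE, which encodes IkB-epsilon, was at 28.2, 23.6 and 29.2 CPM in the treated libraries, against 11.9, 15.8 and 16.8 CPM in WT DMSO. These groups did not overlap either. NFKBIE rose 1.82-fold, a log2 fold change of 0.87 (SE 0.166, adjusted p = 0.000151).

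NFKB1, which encodes the precursor of a DNA-binding subunit, was at 56.5, 71.0 and 73.7 CPM in WT libraries with GSK-LSD1, against 52.5, 57.1 and 55.6 CPM in WT DMSO libraries. The groups overlapped, since the lowest treated library lay below the highest untreated one. The rise was 1.22-fold, a log2 fold change of 0.29 (SE 0.104, adjusted p = 0.0256). This call was lost without a count filter (adjusted p = 0.0780), without WT DMSO replicate 1 (0.112) or 2 (0.0527), and without WT GSK-LSD1 replicate 2 (0.0972) or 3 (0.165).

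The remaining subunits were not called in WT cells. RELA, the main activating subunit, averaged 144 ± 28.6 CPM with GSK-LSD1 and 129 ± 20.1 CPM in DMSO (SD, n = 3), a log2 fold change of 0.16 with a 95% interval of -0.10 to 0.42. RELB, the partner of NFKB2 in the alternative pathway, averaged 29.3 ± 7.84 CPM with the drug and 30.2 ± 1.08 CPM in DMSO, and its interval ran from -0.46 to 0.32. The treated RELB libraries, at 37.1, 29.4 and 21.4 CPM, lay on both sides of the WT DMSO ones, at 31.4, 29.5 and 29.7 CPM.

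NFKB2, which encodes the precursor processed in the alternative pathway, was at 2.65, 2.88 and 3.16 CPM in the treated WT libraries, against 4.04, 3.62 and 3.57 CPM in WT DMSO libraries. Every treated library lay below every untreated one, as was the case for 25.4% of all genes tested, but the gene was not called (log2 fold change -0.35, edgeR adjusted p = 0.389). With 14 to 31 reads in each treated library, the 95% interval held levels 0.4996 to 1.23 times that in DMSO.

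Neither target was called in WT cells. ICAM1, an adhesion molecule that binds leukocyte integrins, was at 5.67, 10.2 and 4.89 CPM in WT libraries with GSK-LSD1, against 5.62, 5.23 and 8.57 CPM in WT DMSO libraries. The highest library of each group stood well above the other two, and the groups overlapped. Its log2 fold change was 0.06 with an interval of -0.50 to 0.62 (edgeR adjusted p = 0.874). CD83, a surface molecule of activated antigen-presenting cells, was at 7.37, 11.9 and 6.11 CPM with the drug, against 5.79, 7.24 and 6.07 CPM in DMSO. These groups overlapped as well, with a log2 fold change of 0.36 and an interval of -0.19 to 0.91 (adjusted p = 0.286).

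Marker lists of other cells also moved in WT cells, and not all in the same direction. The summed level of 10 monocyte and macrophage markers was 189 to 216 CPM in WT libraries with GSK-LSD1, against 101 to 123 CPM in WT DMSO libraries, with ITGAM and LYZ called higher of 3 tested. Of this list, CD163, FCN1 and MARCO were at 0 in every library, and CD14 averaged 0.998 CPM with the drug and 0.178 CPM in DMSO. CSF1R averaged 1.29 CPM with the drug and 0 CPM in DMSO, MS4A7 0.229 and 0.0447 CPM, and FCGR3A 0 and 0.0447 CPM. CD68, also tested, was not called (log2 fold change -0.30, edgeR adjusted p = 0.342). Of 5 leukemia cell markers tested, PTPRC, CD33, CD34 and SPI1 rose and KIT fell, with log2 fold changes of 1.13 for PTPRC, the common leukocyte antigen (edgeR adjusted p = 1.07e-11), and -0.68 for KIT, a stem cell factor receptor (adjusted p = 4.12e-07). The 5 B cell markers summed to 23.9 to 24.8 CPM with GSK-LSD1, against 14.7 to 19.3 CPM in DMSO, with CD79A and PAX5 called higher of 3 tested and MS4A1 at 0. The T cell list summed to 3.06 to 4.54 CPM with the drug, against 0.714 to 1.61 CPM in DMSO, with none called of 1 tested. The fibroblast list summed to 3.78 to 4.42 CPM with the drug, against 0.179 to 1.47 CPM in DMSO, with COL1A2 called higher of 3 tested and DCN at 0. The dendritic cell list was lower, at 315 to 328 CPM with the drug against 392 to 429 CPM in DMSO. FSCN1 was called lower of 2 tested (log2 fold change -0.35, edgeR adjusted p = 0.000334). The endothelial list was higher, at 158 to 173 CPM against 98.9 to 109 CPM, with ESAM and CDH5 called higher of 2 tested. CDH5 averaged 0.781 CPM with the drug and 0.207 CPM in DMSO. The part of these markers in the levels of the 9 genes was not tested.

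**Figure D2:**
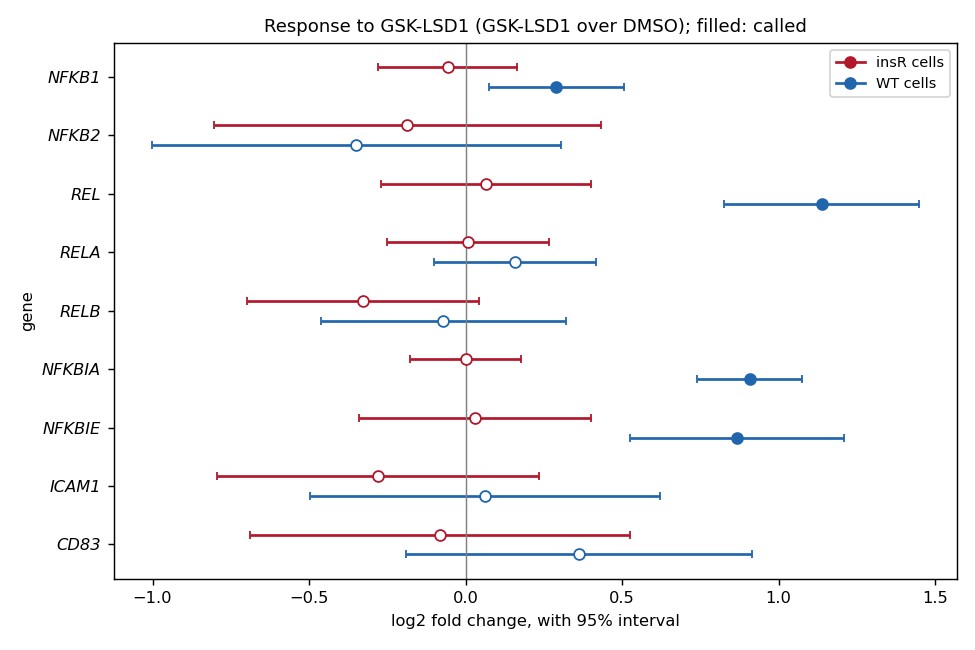
Log2 fold change of GSK-LSD1 over DMSO for each gene, with its 95% interval, in insR cells (upper of each pair) and in WT cells (lower); filled points were called. The WT values of REL, NFKBIA and NFKBIE lie at 0.87 to 1.14, and every insR interval includes 0.

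In insR cells none of the 9 genes was called under GSK-LSD1. The edgeR test called 0.505% of all genes in this comparison, 0.241% higher and 0.264% lower. Of the 9 genes 0 had an unadjusted edgeR p below 0.05, beside 996 of all 12864 genes tested. DESeq2, limma-voom and limma-trend called 0 of the 9 as well, beside 93, 53 and 34 of all genes. REL was at 16.4, 15.6 and 18.3 CPM in insR libraries with GSK-LSD1, against 16.6, 15.2 and 16.3 CPM in insR DMSO libraries. NFKBIA was at 79.4, 71.4 and 72.8 CPM with the drug, against 81.2, 73.9 and 67.8 CPM in DMSO. NFKBIE was at 11.3, 17.4 and 12.9 CPM with the drug, against 14.7, 13.0 and 12.1 CPM in DMSO. The treated and untreated libraries overlapped for all 9 genes, while of all genes tested 7.21% had every treated library above the untreated ones and 6.44% below.

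The intervals bound what these libraries could have missed in insR cells. For NFKBIA the log2 fold change was 0.00 with a 95% interval of -0.18 to 0.18. REL had a log2 fold change of 0.07 with an interval of -0.27 to 0.40, and NFKBIE 0.03 with an interval of -0.34 to 0.40. The upper bound of each lay below its WT estimate. RELB was farthest from 0, at 34.2, 28.4 and 42.0 CPM with the drug, against 52.1, 42.2 and 36.6 CPM in insR DMSO libraries. The groups overlapped and the log2 fold change was -0.33 (interval -0.70 to 0.04, edgeR adjusted p = 0.719). The monocyte and macrophage markers summed to 134 to 148 CPM in insR libraries with GSK-LSD1, against 110 to 118 CPM in insR DMSO libraries, and ITGAM was called higher. Of the remaining genes, the log2 fold changes lay between -0.28 for ICAM1 and 0.01 for RELA.

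Whether the response itself differed between the cells was tested as the insR response minus the WT response. REL, NFKBIA and NFKBIE responded less in insR cells. This is 3 of 9 genes, beside 25.1% of all genes tested called in either direction and 11.8% called lower. The difference in log2 response was -1.07 for REL (SE 0.222, edgeR adjusted p = 0.000893), -0.91 for NFKBIA (SE 0.118, adjusted p = 4.17e-06) and -0.84 for NFKBIE (SE 0.244, adjusted p = 0.0138). The NFKBIE call was lost without insR DMSO replicate 1 (adjusted p = 0.05004). NFKB1 had a difference of -0.35 and was not called (adjusted p = 0.0922), but was called without WT GSK-LSD1 replicate 1 (0.0216).

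The genotypes were also compared without the drug. In DMSO, NFKBIA was lower and RELB higher in insR than in WT cells. The 2 called genes compare with 30.1% of all genes called, 15.6% lower and 14.5% higher. With the levels already given, every insR DMSO library of NFKBIA, at 67.8 to 81.2 CPM, lay below every WT DMSO library, at 114 to 122 CPM. The log2 fold change was -0.67 (SE 0.0841, edgeR adjusted p = 6.87e-07), a level 0.627 times that of WT cells. NFKB1 libraries did not overlap either, at 47.3 to 48.7 CPM in insR cells and 52.5 to 57.1 CPM in WT cells, but the gene was not called (log2 fold change -0.21, adjusted p = 0.154). Libraries of 21.5% of all genes lay apart in this direction.

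RELB was at 36.6 to 52.1 CPM in insR DMSO libraries, against 29.5 to 31.4 CPM in WT DMSO libraries, with no overlap. The log2 fold change was 0.54 (SE 0.178, edgeR adjusted p = 0.0268). The call was lost on leaving out any of 5 of the 6 libraries compared: WT DMSO replicate 1 (adjusted p = 0.0542), 2 (0.0828) or 3 (0.0741), and insR DMSO replicate 1 (0.138) or 2 (0.0526). In this direction libraries of 20.9% of all genes lay apart. ICAM1 libraries lay apart too, at 10.6, 10.1 and 8.79 CPM in insR cells, against 5.62, 5.23 and 8.57 CPM in WT cells. Its log2 fold change of 0.62 was not called (SE 0.255, adjusted p = 0.0682). ICAM1 was called without a count filter (0.0467), with limma-voom (0.0487), with only the groups compared (0.0445), without WT DMSO replicate 3 (0.0200) and without WT GSK-LSD1 replicate 2 (0.0400).

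Under GSK-LSD1 the genotypes lay farther apart, and NFKBIA, REL, NFKBIE, NFKB1 and CD83 were all lower in insR than in WT cells. The 5 called genes compare with 54.5% of all genes called, 27.5% of them lower. NFKBIA averaged 74.5 ± 4.31 CPM in insR cells and 223 ± 1.93 CPM in WT cells (SD, n = 3 each), a log2 fold change of -1.58 (SE 0.0843, edgeR adjusted p = 9.35e-14). REL averaged 16.8 ± 1.39 CPM in insR cells and 37.9 ± 6.66 CPM in WT cells, a log2 fold change of -1.18 (adjusted p = 5.07e-07). All 5 genes had libraries that did not overlap, as did 30.4% of all genes tested in this direction and 29.7% in the other.

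NFKBIE averaged 13.9 ± 3.19 CPM in insR cells with GSK-LSD1 and 27.0 ± 2.98 CPM in WT cells with it (SD, n = 3 each), a log2 fold change of -0.99 (edgeR adjusted p = 2.73e-05). NFKB1 averaged 45.8 ± 3.26 CPM in insR cells and 67.1 ± 9.25 CPM in WT cells, a log2 fold change of -0.55 (adjusted p = 0.000103). CD83 was at 5.64, 3.11 and 5.42 CPM in insR libraries, against 7.37, 11.9 and 6.11 CPM in WT libraries. The highest CD83 value, that of WT GSK-LSD1 replicate 2, stood well above the rest. Its log2 fold change was -0.77 (SE 0.282, adjusted p = 0.0230), and the call was lost with limma-voom (0.0527), without WT GSK-LSD1 replicate 2 (0.182) and without insR GSK-LSD1 replicate 2 (0.116). RELA, RELB, NFKB2 and ICAM1 were not called, but RELB was called without WT GSK-LSD1 replicate 1 (log2 fold change 0.49, adjusted p = 0.0199) and ICAM1 without WT GSK-LSD1 replicate 2 (0.64, adjusted p = 0.0496).

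**Figure D3:**
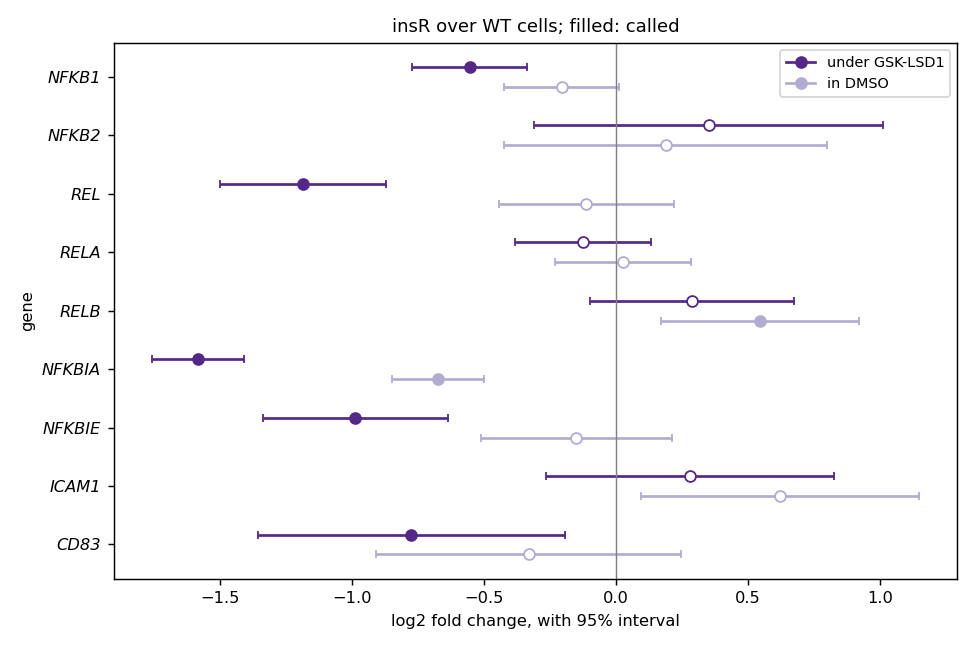
Log2 fold change of insR over WT cells for each gene, with its 95% interval, under GSK-LSD1 (upper of each pair) and in DMSO (lower); filled points were called. NFKBIA lies below 0 in both conditions, at -1.58 and -0.67, while REL and NFKBIE are called under GSK-LSD1 and not in DMSO.

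Read across the 4 groups, the levels fell into different orders. REL averaged 16.8 CPM in insR GSK-LSD1, 16.0 in insR DMSO, 37.9 in WT GSK-LSD1 and 17.3 in WT DMSO. Treated WT cells stood highest, apart from the next group, WT DMSO, and the 3 lower groups overlapped with their neighbours in the order. NFKBIE averaged 13.9, 13.3, 27.0 and 14.9 CPM in the same groups, with the same order and the same single gap. NFKBIA averaged 74.5, 74.3, 223 and 119 CPM, and here treated WT cells, untreated WT cells and the pair of insR groups formed 3 levels with no overlap between them. NFKB1 averaged 45.8, 47.8, 67.1 and 55.0 CPM, and of its neighbours in the order only insR DMSO and WT DMSO lay apart. NFKB2 averaged 3.79, 4.17, 2.90 and 3.74 CPM, lowest in treated WT cells, and these lay apart from WT DMSO alone. RELA, at 129 to 144 CPM, RELB, at 29.3 to 43.6 CPM, ICAM1, at 6.47 to 9.81 CPM, and CD83, at 4.72 to 8.46 CPM, had neighbours that overlapped at every step.

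Inhibitor and subunit transcripts were also set against each other within a library. NFKBIA and NFKBIE together had 38.1 ± 3.39 reads per 100 reads of the 5 subunit genes in insR cells with GSK-LSD1 and 36.1 ± 1.88 in insR DMSO (SD, n = 3). In WT cells the figures were 89.7 ± 8.73 with GSK-LSD1 and 57.1 ± 3.43 in DMSO. The subunit sum itself was 233 ± 18.0, 243 ± 11.9, 281 ± 29.1 and 235 ± 22.4 CPM in insR GSK-LSD1, insR DMSO, WT GSK-LSD1 and WT DMSO. This was a narrower range than that of the inhibitor sum, 88.4 ± 2.56, 87.6 ± 8.01, 250 ± 1.34 and 134 ± 7.21 CPM. Most of the inhibitor sum was NFKBIA, at 74.5, 74.3, 223 and 119 CPM in the same order, and RELA was the largest part of the subunit sum. Within the subunits, REL had 12.8 ± 1.03 and 12.2 ± 0.0826 reads per 100 RELA reads in insR cells with GSK-LSD1 and in insR DMSO, and 26.7 ± 4.72 with GSK-LSD1 and 13.5 ± 2.03 without it in WT cells. Reads come from transcript ends and were not corrected for length, so these are ratios of reads, and they were not tested. NFKBIB, a further inhibitor gene outside the 9, is not in these sums and ratios. It averaged 56.0 ± 4.3, 60.6 ± 2.9, 43.25 ± 9.2 and 50.4 ± 1.8 CPM in insR GSK-LSD1, insR DMSO, WT GSK-LSD1 and WT DMSO. NFKBIB was not called in the WT response (log2 fold change -0.22, edgeR adjusted p = 0.153). Under GSK-LSD1 it was higher in insR than in WT cells (0.37, adjusted p = 0.0121), a call lost without WT GSK-LSD1 replicate 1 (0.0985). BCL3, which encodes a nuclear IkB protein, is not in the sums and ratios either. It averaged 241.8 ± 34.05, 235.9 ± 25.81, 138.3 ± 14.2 and 167.5 ± 12.76 CPM in the order of groups given for NFKBIB.

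**Figure D4:**
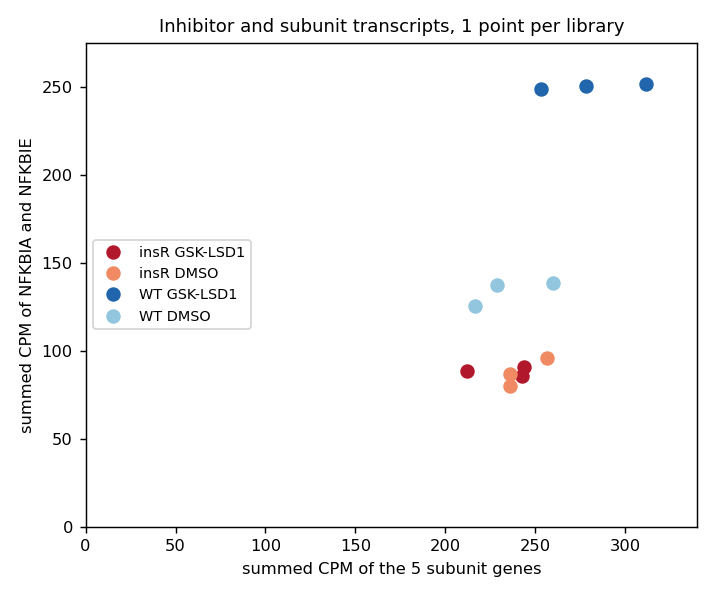
Summed level of NFKBIA and NFKBIE against the summed level of the 5 subunit genes, both in CPM, with 1 point per library. WT libraries with GSK-LSD1 lie at 249 to 252 CPM of inhibitor transcript and insR libraries at 80.0 to 95.9 CPM, while the subunit sums of the 4 groups span 212 to 311 CPM.

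The genes around these 9 were followed through 5 lists of the pathway, 117 genes in all, of which 114 matched a row and 78 were tested. In WT cells 25 of the 78 rose and 12 fell under GSK-LSD1, beside 22.7% of all genes tested that rose and 22.5% that fell, and the median log2 fold change was 0.13. Of 5 ligands tested only TNFSF10, the death ligand TRAIL, was called, at 157 ± 10.9 CPM with GSK-LSD1 and 55.3 ± 4.34 CPM in DMSO (log2 fold change 1.504, edgeR adjusted p = 4.88e-11). Of 22 receptors and adaptors 9 rose and 3 fell. The largest rises named by the rule were IL1RAP, a chain of the IL-1 receptor, at 1.83, IL18R1, a chain of the IL-18 receptor, at 1.47, and TLR6, a receptor of bacterial lipopeptides, at 1.21. The falls were TNFRSF8, also known as CD30, at -1.41, the lymphotoxin receptor LTBR at -0.70 and the adaptor TRAF3 at -0.44.

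Among 9 kinases in WT cells 2 rose and 3 fell. IKBKB, an IKK subunit, rose to 23.1 ± 2.49 CPM with GSK-LSD1, against 14.6 ± 1.27 CPM in DMSO (log2 fold change 0.67, edgeR adjusted p = 0.00142). The other kinase that rose was under the level set for naming a gene. CHUK, another IKK subunit, fell to 24.6 ± 4.34 CPM with the drug, against 44.1 ± 4.99 CPM in DMSO (-0.86, adjusted p = 0.000461). The falls of TBK1 (-0.36) and TAB1 (-0.33) rested on some libraries. The TBK1 call did not hold when replicate 1 of WT DMSO (adjusted p = 0.0546) or replicate 3 of WT GSK-LSD1 (0.0554) was left out. TAB1 was lost without WT DMSO replicate 1 (0.0689) or 3 (0.0865), without WT GSK-LSD1 replicate 1 (0.124) or 3 (0.104), and under 4 other settings (0.0592 to 0.0765).

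Of 18 other inhibitors and regulators 7 rose and 2 fell in WT cells. BIRC3, a ubiquitin ligase at TNF receptors, rose with a log2 fold change of 1.36 (edgeR adjusted p = 1.57e-05), and PDLIM2, a ligase for nuclear RELA, with 0.99 (adjusted p = 0.000106). NKIRAS1, a small GTPase-like regulator of IkB breakdown, rose with 0.75, a call lost when replicate 1 (0.0645) or 2 (0.115) of WT DMSO or replicate 3 (0.227) of WT GSK-LSD1 was left out. BTRC, the ubiquitin ligase subunit that recognizes marked IkB, fell with -0.41 (adjusted p = 0.00119). BCL3, a nuclear IkB protein, fell with -0.28, a call lost with upper-quartile scaling (0.0784), without WT DMSO replicate 1 (0.112) and without WT GSK-LSD1 replicate 2 (0.0503) or 3 (0.177).

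Of 24 other targets tested in WT cells 6 rose, 4 fell and 14 were not called. CD44, an adhesion receptor, rose to 369 to 399 CPM with GSK-LSD1, against 81.5 to 103 CPM in DMSO (log2 fold change 2.00, edgeR adjusted p = 7.57e-15). PTX3, a secreted pattern recognition protein, rose to 5.21 ± 0.608 CPM, against 1.17 ± 0.258 CPM in DMSO (2.15, adjusted p = 6.59e-05), and KLF6, a zinc finger factor, rose with 0.81. IER3, an early response gene, fell to 2.68 ± 0.644 CPM, against 8.51 ± 1.76 CPM in DMSO (-1.71, adjusted p = 2.38e-05), and NQO1, a quinone reductase, fell with -0.45. BCL2L1, a survival gene, fell with -0.84, a call lost with a replicate block (0.0664), without WT DMSO replicate 1 (0.0925) or 2 (0.0548) and without WT GSK-LSD1 replicate 1 (0.0532), 2 (0.0644) or 3 (0.124).

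**Figure D5:**
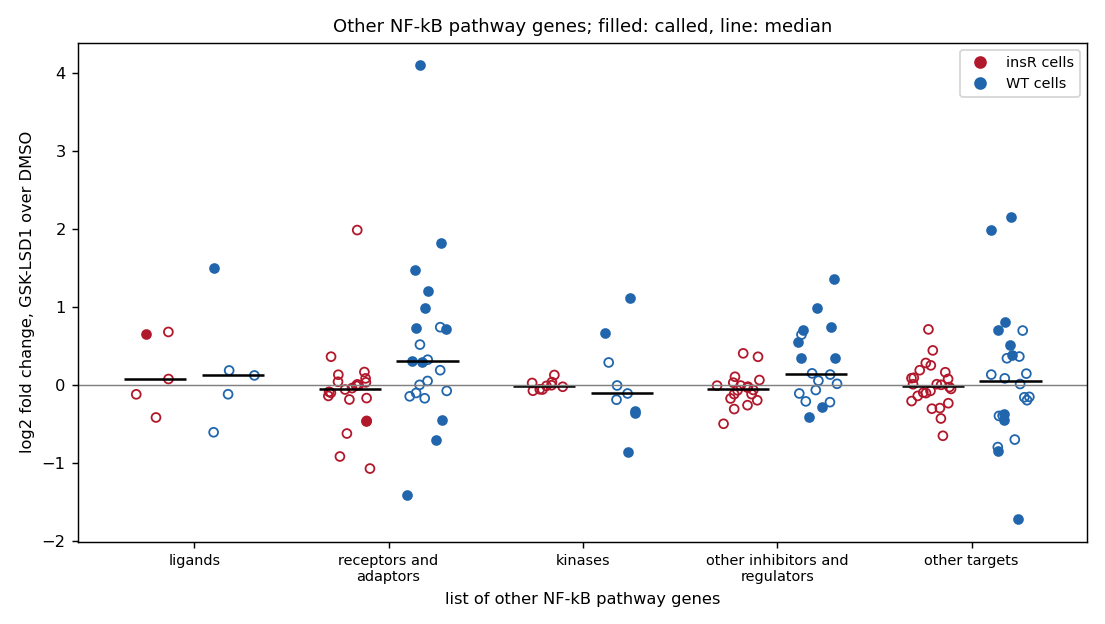
Log2 fold change of GSK-LSD1 over DMSO for the 78 tested genes of the 5 lists, in insR cells (left of each pair) and WT cells (right), with a line at the median of each list; filled points were called. The highest point is TLR1, at a log2 fold change of 4.10 and 4.05 ± 1.16 CPM with the drug against 0.236 ± 0.205 CPM in WT DMSO, which is under the level set for naming a gene.

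In insR cells 2 of the 78 were called under GSK-LSD1, beside 0.505% of all genes. TNFSF10 rose to 39.4 ± 3.49 CPM with the drug, against 24.6 ± 4.44 CPM in DMSO (log2 fold change 0.66, edgeR adjusted p = 0.00780), a call lost when replicate 2 of insR DMSO (0.0824) or replicate 1 of insR GSK-LSD1 (0.0941) was left out. TNFRSF1B, a TNF receptor, fell to 53.7 ± 1.98 CPM with the drug, against 73.6 ± 9.29 CPM in DMSO (-0.46, adjusted p = 0.0376). That call was lost with limma-trend (0.0893), with a replicate block (0.0532), without WT GSK-LSD1 replicate 3 (0.0578), without insR DMSO replicate 1 (0.268) or 2 (0.170), and without insR GSK-LSD1 replicate 1 (0.110), 2 (0.195) or 3 (0.130).

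The response of 19 of the 78 differed between the cells, 4 higher and 15 lower in insR than in WT, beside 13.3% and 11.8% of all genes. The differences in log2 response were -2.28 for IL1RAP, -2.09 for IL18R1, -2.07 for CD44, -1.19 for TNFRSF1B, -0.84 for TNFSF10, -0.72 for the deubiquitinase CYLD and -0.61 for CFLAR, an inhibitor of death receptor signaling. TNFRSF8 had a difference of 1.46, IER3 1.41 and NQO1 0.62. These 10 calls held in each alternative fit. CHUK had a difference of 0.81, a call lost when replicate 1 (0.0531) or 3 (0.0558) of WT GSK-LSD1 was left out, and PTX3 one of -1.71, a call lost when replicate 3 of WT GSK-LSD1 (0.05005) or replicate 2 of insR DMSO (0.0835) was left out. The rule also names IKBKB (-0.68), NFKBIZ (-0.61) and OTULIN (-0.41), whose calls were lost in 8, 10 and 14 of 20 alternative fits, with adjusted p up to 0.102, 0.107 and 0.143.

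Between genotypes in DMSO, 18 of the 78 were higher and 15 lower in insR than in WT cells, beside 14.5% of all genes higher and 15.6% lower. Under GSK-LSD1 17 were higher and 26 lower, beside 27.0% of all genes higher and 27.5% lower. In DMSO, among genes with a mean of 5 CPM or more in the higher group, the largest shifts were in ICOSLG, a costimulatory ligand, with a log2 fold change of -2.58, MAP3K8, a kinase upstream of NF-kB and ERK, with -2.39, and SDC4, a heparan sulfate proteoglycan, with 1.93. MAP3K8 averaged 1.79 ± 0.155 CPM in insR DMSO and 9.23 ± 3.26 CPM in WT DMSO. Under GSK-LSD1 the shifts included ICOSLG at -2.95, IER3 at 2.54, TNFRSF8 at 2.39, BIRC3 at -2.18 and MAP3K8 at -2.08. BIRC3 averaged 4.72 ± 1.95 CPM in insR cells with GSK-LSD1 and 22.2 ± 1.75 CPM in WT cells with it. MALT1, a paracaspase adaptor of antigen receptor signaling, had 1 read in the 3 insR GSK-LSD1 libraries together and 140 in the WT ones, a level 121-fold lower with a 95% counting interval of 21.3 to 4792, and it had 0 counts in the insR DMSO libraries, against 2.14 to 4.42 CPM in WT DMSO libraries.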

How the data were processed

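Per the labels, the QuantSeq FWD kit primed polyadenylated transcripts at their 3′ ends. The submitters' processing notes name bcl2fastq 2.2, STAR 2.6.0c, HTSeq 0.9.1, DESeq2 and hg19. Neither the annotation release nor the strand setting is given in the sources used here, and a gene and its antisense partner cannot be told apart. AC011511.5, antisense to ICAM1, had 57 reads over all libraries and ICAM1 608. REL, RELA and ICAM1 overlap other genes by name in GENCODE, and those overlapping REL had 0 reads. Deposited counts are whole numbers of reads for each gene, not normalized. The deposited normalized signal equals each library's counts over a size factor of that library, and multiplying back gave whole reads for 100% of values, to a tolerance of 0.01, with 0 genes differing. Entries that name no gene made up 65.7% to 69.1% of each table and were left out.

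All 12 libraries were fitted together with edgeR 4.0.16 (robust quasi-likelihood test, TMM, filterByExpr; R 4.3.3), with Benjamini-Hochberg adjustment over 12864 genes. The 9 genes and the 5 pathway lists were chosen with earlier results of these data known. Named pathway genes are, per list and direction, up to 3 called genes of largest change whose higher group averaged 5 CPM or more, and fewer are printed for the genotype comparisons. Some items named by the rules are not reported here. TLR1 falls outside this rule and was named after its values were seen. On simulated counts, 2-fold changes were recovered at 82.1% for the insR response, 79.1% for that of WT cells, 62.7% for the difference, 86.6% for genotype under GSK-LSD1 and 77.6% in DMSO. Each simulation changed few genes, 67 of 12864 by 2-fold. Far more were called in the WT, difference and genotype comparisons, so these rates need not hold there. Alternatives used DESeq2 1.42.0, limma 3.58.1 (limma-voom, and limma-trend on log2 of the deposited signal plus 1), other scalings and count filters, only the groups compared, a replicate block, an adjusted p of 0.01, and each library left out in turn. Promoters came from RefSeq. Python 3.11.15 with numpy 2.4.6, pandas 2.3.3, scipy 1.17.1 and matplotlib 3.10.9 made tables and plots.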

Additional observations from a re-analysis of the deposited data

Results flagged for a closer look

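The response to GSK-LSD1 of 3 of the 9 genes differed between insR and WT cells by a test of the difference itself. The same test called 25.1% of all genes in either direction and 11.8% lower. The insR minus WT log2 response was -1.07 for REL, -0.91 for NFKBIA and -0.84 for NFKBIE, each with a 95% interval below 0. REL stood at 16.8 ± 1.39 CPM in insR cells with the drug and 16.0 ± 0.747 CPM in insR DMSO, and at 37.9 ± 6.66 CPM in WT cells with the drug and 17.3 ± 3.12 CPM in WT DMSO (SD, n = 3).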

How the results depend on the processing

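The WT rises of REL, NFKBIA and NFKBIE were called in every alternative fit, and so was the lower NFKBIA level of insR cells in both conditions. At an adjusted p of 0.01 the counts among the 9 genes were 0 for the insR response, 3 for that of WT cells, 2 for the difference, and for the genotypes 4 under GSK-LSD1 and 1 in DMSO. The share of all genes called at that threshold was not counted, so these counts cannot be read against it. At 0.05 the DMSO count among the 9 genes was 1 to 3 when a library was left out. With a library left out it was 3 to 4 for the WT response, 2 to 4 for the difference, 4 to 6 for insR against WT under GSK-LSD1, and 0 throughout for the insR response. Of 13090 to 13266 genes tested in these fits, 4975 to 5921 were called for the WT response and 2684 to 3199 for the difference. For the genotypes, 6331 to 7304 were called under GSK-LSD1 and 3210 to 4116 in DMSO. Signs of uncalled values turned, and the cause was not tested. The ICAM1 WT response was -0.008857 with limma-voom. In insR cells NFKBIA was -0.001604 with DESeq2 size factors, -0.002765 without a count filter, -0.001855 at 1 CPM in 3 libraries, -0.002967 with DESeq2 and -0.001244 with limma-voom, and NFKBIE was -0.009868 with limma-voom. With a library left out, log2 values spanned -0.004288 to 0.29 for RELA, -0.28 to 0.14 for RELB and -0.30 to 0.30 for ICAM1 in the WT response. In the insR response they spanned -0.40 to 0.0245 for NFKB2, -0.0554 to 0.0623 for RELA, -0.0598 to 0.0727 for NFKBIA, -0.16 to 0.15 for NFKBIE and -0.24 to 0.11 for CD83. The difference spanned -0.0473 to 0.38 for NFKB2, -0.28 to 0.0146 for RELA and -0.59 to 0.0174 for ICAM1. For insR against WT they spanned -0.001316 to 0.41 for NFKB2 and -0.0569 to 0.16 for RELA in DMSO, and -0.24 to 0.0367 for RELA under GSK-LSD1.

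Over all genes, the 65 calls of the insR response became 34 with limma-trend (23 higher, 11 lower), 93 with DESeq2, 118 without a count filter, 91 with only the groups compared and 28 to 91 with a library left out. Replicate numbers did not pair the libraries: 3 of 18 same-numbered pairs had correlated deviations above 0.1 (-0.169 to 0.198). With a replicate block, the counts among the 9 genes did not move: 0 in the insR response, 4 in that of WT cells, 3 in the difference, and for the genotypes 5 under GSK-LSD1 and 2 in DMSO. Over all 12864 genes the block gave 60, 5818, 3198, 6994 and 3897 calls in the same order. NFKB2, CD83 and ICAM1 had 14 to 104 reads per library and wide intervals, and the part of depth in these was not tested.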

Other observations

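The tested genes whose pattern over the 12 libraries was nearest to each called gene were found by the root mean square difference of centred log2 CPM, over 12863 other genes. Nearest to REL were ELMO1, at 0.149, and PTPRC, at 0.158. Nearest to NFKBIA was OSBPL5, at 0.0700, with levels of 32.1 CPM in insR GSK-LSD1, 31.3 in insR DMSO, 91.8 in WT GSK-LSD1 and 50.1 in WT DMSO. Nearest to NFKBIE were CYBA and SYT11, at 0.155 and 0.156, and nearest to NFKB1 were ARID2 and CRYZL1, at 0.0496 and 0.0812. Among the rest, RELA lay nearest to PRKACA, at 0.0786, and VPS41, at 0.0837. RELB lay nearest to TUBB and TSSC4, at 0.144 and 0.160, CD83 to RIN1 and ITPKC, at 0.143 and 0.162, and NFKB2 to CS and COQ7, at 0.175 and 0.177. These are descriptions of 12 libraries in 4 groups and carry no test.

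The marker list of dendritic cells summed to 501 to 519 CPM in insR GSK-LSD1, 478 to 513 in insR DMSO, 315 to 328 in WT GSK-LSD1 and 392 to 429 in WT DMSO. Nearly all of it was FSCN1, while CD1C, CD1A, XCR1 and CD207 were at 0 in every library. The list of endothelial markers was led by ESAM and summed to 141 to 154, 134 to 149, 158 to 173 and 98.9 to 109 CPM in the same groups. In the insR groups, the B cell list summed to 15.5 to 17.03 CPM with GSK-LSD1 and 10.4 to 14.0 CPM in DMSO, the T cell list to 1.93 to 4.03 and 2.14 to 5.10 CPM, and the fibroblast list to 0.830 to 4.35 and 4.88 to 6.76 CPM.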
